A study of Mus musculus with 7 samples.

Results

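Errfi1 and 9 genes of epidermal growth factor (EGF) receptor signalling were followed in mouse embryonic fibroblasts (MEFs) that lack a segment of chromosome 4. The 10 genes were taken by Ensembl identifier, and all 10 occur among the 15531 genes with normalized counts. These were taken as the genes tested for differential expression (DE) between the genotypes. Errfi1 lies inside the deleted segment, and the other 9 lie elsewhere in the genome. The question was whether their expression differed when 1 copy of Errfi1 was missing together with the rest of the segment.

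Df/+Bl6 MEFs (4 lines) carried a chromosome 4 of 129S5/SvEvBrd origin with an engineered deletion of 4.3 Mb at 4E2, and an intact C57BL/6J homologue. +129/+Bl6 MEFs (3 lines) were F1 hybrids with an intact chromosome 4 from each strain. The deletion lines came from crosses of Df/Dp chimeric males with C57BL/6J mice. The labels give that cross for all lines, whereas the methods of the study name F1 +129/+Bl6 crosses for the controls. All were primary cultures made at embryonic day 13.5 and harvested as confluent plates at passage 4, and their polyA+ RNA was sequenced in stranded, paired-end form. Because the deletion removes many genes at once, an effect of losing Errfi1 cannot be told apart from effects of losing its neighbours. The values are the authors' mean normalized counts of each genotype, deposited for DE genes at an FDR of 0.05, in a combined comparison over both alleles and in 1 comparison for each allele. Values of single lines were not used, so their depth is unknown and no SD, standard error or new test is given; DE status is the authors' DESeq call. A log2 ratio is Df/+Bl6 over +129/+Bl6 throughout, with negative values lower in the deletion lines. A gene that is not in a table has no value there, and its absence does not show that its expression was equal.

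EGF receptor signalling starts when ligands such as amphiregulin (Areg), epiregulin (Ereg) and heparin-binding EGF-like growth factor (Hbegf) bind the receptor tyrosine kinase Egfr, which can pair with Erbb2, a family member without a known ligand. The signal runs through Ras and Raf to the kinase ERK. It is held in check by genes that the pathway itself induces. Errfi1, also called Mig6, binds the kinase domain of the receptors and inhibits it, Dusp6 is a phosphatase that inactivates ERK, and the Sprouty proteins (Spry1, Spry2, Spry4) dampen signalling between receptor and ERK.

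Errfi1 (ENSMUSG00000028967) is annotated on the forward strand of chromosome 4 at 150228028 to 150243001 of NCBI37/mm9, with 4 exons in its longest transcript of 3043 bases. It starts 232 kb after the end of Rere, and Ski starts 4.29 Mb after its end; the genes between Rere and Ski were taken as the deletion interval. These 4.53 Mb exceed the 4.3 Mb of the deletion, and its breakpoints were not placed here, so genes near either end may lie outside it. RefSeq gives 2 starts for Errfi1. Upstream of the second lie the 250 bases printed here (GRCm38.p6, chr4:150854820-150855069, forward strand, reference strain), since Errfi1 is the 1 gene of the 10 that was DE and this is the sequence of the copy that both genotypes keep. Capitals mark matches to the cyclic AMP response element TGACGTCA, to the TATA box TATAAA and to the GC box GGGCGG, searched on both strands.

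Errfi1: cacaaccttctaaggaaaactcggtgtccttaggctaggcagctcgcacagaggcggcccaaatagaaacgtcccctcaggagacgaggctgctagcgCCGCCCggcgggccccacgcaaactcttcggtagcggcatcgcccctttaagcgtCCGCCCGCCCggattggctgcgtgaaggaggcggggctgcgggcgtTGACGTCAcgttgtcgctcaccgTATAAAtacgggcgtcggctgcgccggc

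The window holds 1 response element, 1 TATA box and 3 GC boxes, of which 2 overlap. RefSeq windows of 300 bases, from 250 before to 50 after a start, were found for 7 of the 10 genes, 8 windows in all. The response element occurred in 1.79% of all 32851 windows of that length. Among the genes studied, it was in the windows of Areg and of the second Errfi1 start, not of the first. The same windows of Errfi1 and Areg held the TATA box, found in 13.6% of all windows. GC boxes occurred in 4 of the 8 windows and in 35.7% of all. The AP-1 motif TGANTCA (7.81% of all windows) and the ETS motif CCGGAAGT (3.89%) were in none of the 8. The share of G and C ran from 42.0% in the window of the first Errfi1 start to 66.7% in that of the second. These are matches of letters, and binding was not measured.

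Errfi1 expression was lower in Df/+Bl6 MEFs. Its mean normalized count in the combined comparison was 17739 in +129/+Bl6 and 8843 in Df/+Bl6, so that 49.8% of the control level was left (log2 ratio -1.00). By genotype, every Df/+Bl6 cell lacks the 129S5 copy. Beyond that loss, fewer cells that express a gene and less of its RNA per cell cannot be told apart in bulk RNA. Among the 550 genes lower in Df/+Bl6, 172 had a lower ratio than Errfi1.

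In the comparison of the 129S5 allele, which was normalized separately, the mean of Errfi1 was 150.3 in +129/+Bl6 and 1.52 in Df/+Bl6 (log2 ratio -6.63). The deletion lines kept 1.01% of the control value. The allele that the deletion removes was thus close to 0 in the lines labelled as lacking it. With 10 added to both means this ratio was -3.80, since the Df/+Bl6 mean is so small. Errfi1 is not in the table of the C57BL/6J allele, so no level of the remaining copy can be given for either genotype.

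**Figure D1:**
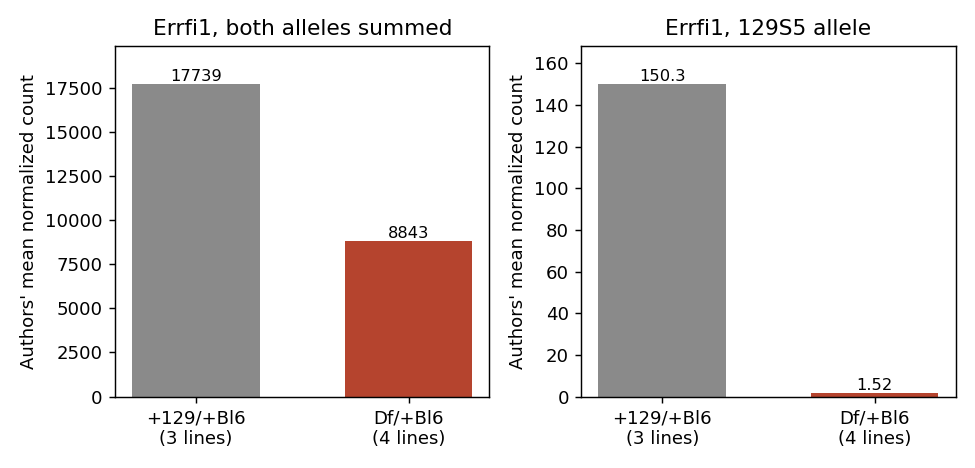
Authors' mean normalized count of Errfi1 in +129/+Bl6 (3 lines) and Df/+Bl6 (4 lines) MEFs, for both alleles summed (left) and for the 129S5 allele (right), each panel on its own scale from 0. Bars are means without error bars; the left pair falls from 17739 to 8843 and the right pair from 150.3 to 1.52.

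Errfi1 had one of the higher levels per length among the DE genes of the interval. The annotation places 85 genes between Rere and Ski, of which 42 were tested and 27 were DE in the combined comparison, all lower in Df/+Bl6. Divided by the length of its longest transcript, the mean normalized count of Errfi1 in +129/+Bl6 was 5830 per kb, rank 5 of the 27 and rank 141 of the 1320 DE genes with an annotated length, whose median was 753.2 per kb. The lengths are those of an earlier gene set than the one the reads were counted on.

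The ratio of Errfi1 lay in the middle of the interval. The median log2 ratio of the 27 genes was -1.02, and Errfi1 ranked 15 from the lowest. Arhgef16 had the lowest ratio (-2.79), at means of 126.7 in +129/+Bl6 and 18.3 in Df/+Bl6, and Phf13 the highest (-0.66). The next annotated gene before Errfi1, Gm13048, was not among the genes tested. Park7, which encodes a protein protective against oxidative stress, lies on the opposite strand with its nearer end 28.2 kb after Errfi1. Its mean fell from 10153 to 4043 (log2 ratio -1.33), and it was DE for both alleles, with a 129S5 log2 ratio of -8.49 and a C57BL/6J log2 ratio of -1.19. Of the 27 genes, 12 were DE for the C57BL/6J allele, Park7 among them. Their C57BL/6J log2 ratios ran from -1.70 to -0.61, with a median of -0.85.

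The 129S5 mean of Errfi1 was low beside its combined mean. Of the 27 interval genes, 19 were also DE for the 129S5 allele, and their Df/+Bl6 means were at most 2.52% of the control means, with a median of 0.486%. That of Errfi1 was exceeded by 3 of them. Set against its combined mean in +129/+Bl6, the 129S5 mean of Errfi1 amounted to 0.847%, the lowest of the 19 (median 6.58%). As the tables were normalized separately, these percentages rank genes and do not give the share of an allele.

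**Figure D2:**
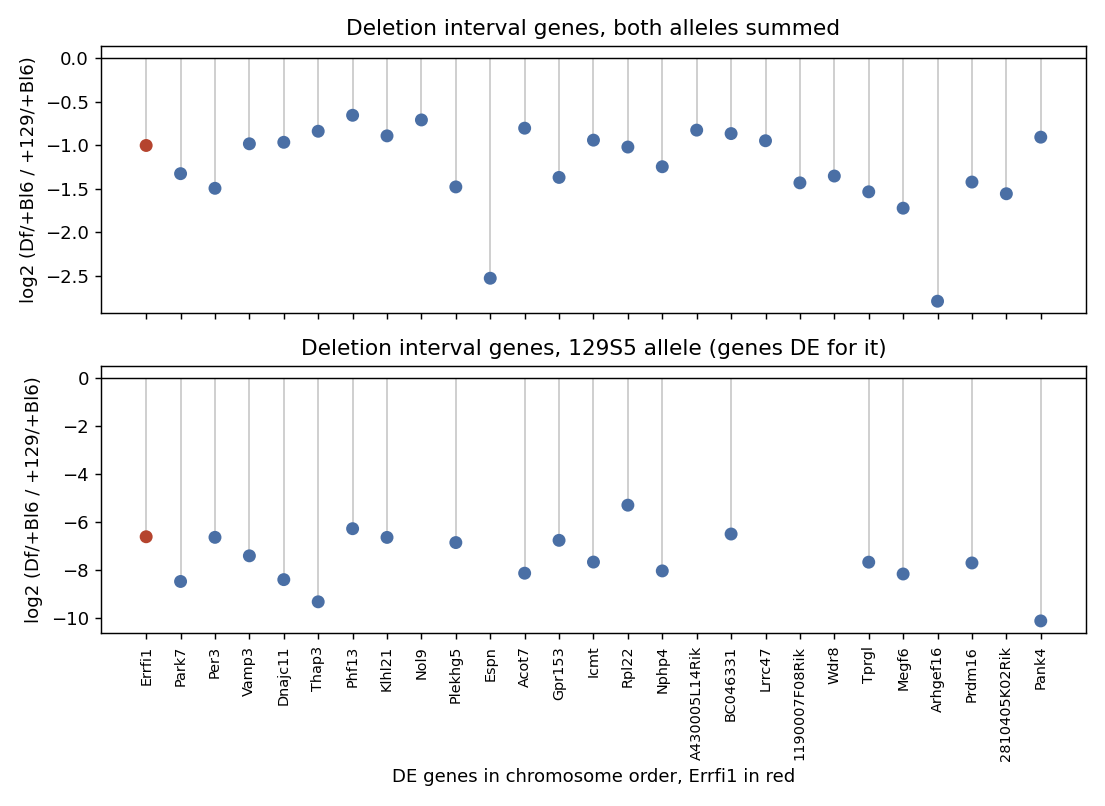
Log2 ratio of Df/+Bl6 over +129/+Bl6 for the 27 DE genes of the deletion interval in chromosome order, for both alleles summed (top) and for the 19 of them that were DE for the 129S5 allele (bottom). Errfi1, in red, lies at -1.00 in the top panel, near the median of -1.02, and at -6.63 in the bottom panel, where ratios run from -10.14 to -5.31.

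The genes most like Errfi1 were sought among the 37 other genes that were DE in the combined and 129S5 comparisons but not for the C57BL/6J allele, by the Euclidean distance of their 2 log2 ratios. The nearest 5 were Per3 (distance 0.493), Prdm16 (1.17), Rpl22 (1.32), Nphp4 (1.45) and Thap3 (2.72). All 5 lie in the deletion interval, which held 6 of the 37 candidates. The 129S5 ratio is very low for genes whose 129S5 copy is deleted. That the nearest genes lie in the interval therefore largely follows from the deletion and is no separate result. The order rests on small Df/+Bl6 means of the 129S5 allele. In alternatives chosen after seeing the data, Prdm16 was nearest with a pseudocount of 1 (distance 0.435) and Pank4, the sixth interval candidate, with 10 (0.143), and 4 of the 5 genes were among the nearest 5 each time. Per3, a gene of the circadian clock, had log2 ratios of -1.50 and -6.65. Rpl22, a ribosomal protein gene, had -1.02 and -5.31.

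Of the 10 genes, 1 was DE in the combined comparison, Errfi1, where 8.67% of all tested genes were DE. Counted by direction, 3.54% of tested genes were DE and lower in Df/+Bl6, as Errfi1 was, and 5.13% DE and higher. The other 9 were in none of the 3 tables. The smallest log2 ratio of any DE gene was 0.42 in size, or 1.34-fold.

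Among the ligands, Areg (ENSMUSG00000029378) and Ereg (ENSMUSG00000029377) lie 46 kb apart on the forward strand of chromosome 5, and Hbegf (ENSMUSG00000024486) on chromosome 18. The receptors Egfr (ENSMUSG00000020122) and Erbb2 (ENSMUSG00000062312) are both on chromosome 11. Egfr is the longest of the 10 genes at 166 kb and has 28 exons in its longest transcript. The feedback genes Dusp6 (ENSMUSG00000019960), Spry1 (ENSMUSG00000037211), Spry2 (ENSMUSG00000022114) and Spry4 (ENSMUSG00000024427) lie on chromosomes 10, 3, 14 and 18, and the 3 Sprouty genes have 2 exons each. Errfi1 is thus the single member on chromosome 4. No change of these 9 genes was called with 4 and 3 lines, and their levels were not analysed here.

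A wider list of 67 genes of the EGF receptor and ERK pathway was examined in the same way, and 65 of them were tested. In the combined comparison 4 were DE (6.15%, against 8.67% of all tested genes), with 2 lower and 2 higher in Df/+Bl6. Without the 10 genes above, 3 of 55 were DE (5.45%). None of the 7 ligands tested, 10 genes of the Ras, Raf and ERK cascade, 6 adaptors and exchange factors or 16 early response genes, such as Fos, Egr1 and Etv4, was among them. Errfi1 was the only one of the 65 that was DE for an allele.

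**Figure D3:**
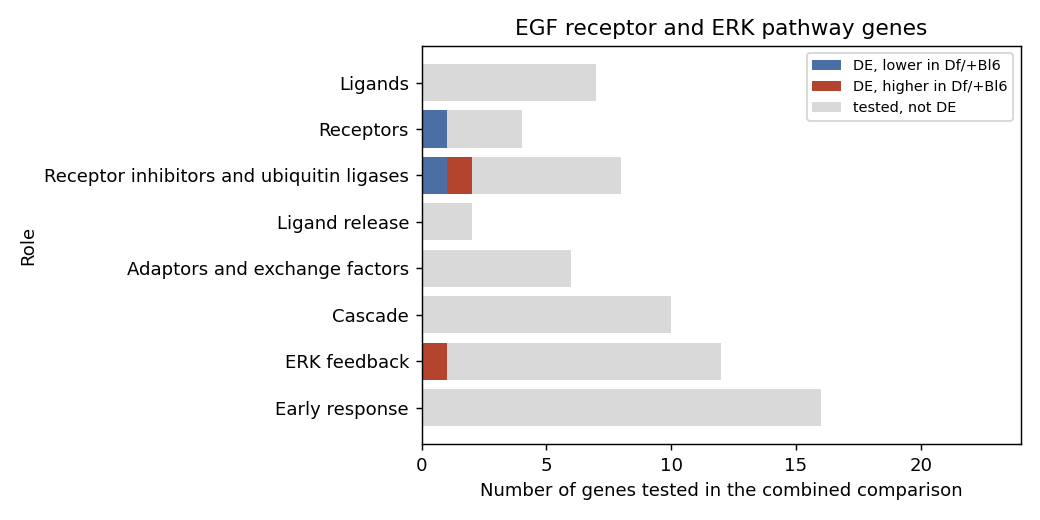
Number of tested genes of the EGF receptor and ERK pathway by role, split into those DE and lower in Df/+Bl6, DE and higher in Df/+Bl6, and tested but not DE in the combined comparison. DE genes occur among the receptors (1 of 4), the receptor inhibitors and ubiquitin ligases (2 of 8) and the ERK feedback genes (1 of 12).

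Spred1, which encodes an inhibitor of Ras and Raf signalling related to the Sprouty proteins, had a mean of 7815 in +129/+Bl6 MEFs and rose to 13855 in Df/+Bl6 MEFs (log2 ratio 0.83). It was the 1 DE gene among the 12 ERK feedback genes tested. Socs4, which belongs to the suppressors of cytokine signalling and has been tied to EGF receptor degradation, rose from 2889 to 4433 (log2 ratio 0.62). Centred on the median of the DE genes outside the interval, 0.62, the log2 ratios were 0.21 for Spred1 and 0.00 for Socs4. That median is one of called genes, most of them higher in Df/+Bl6, and does not mark a level of no change. Per kb of transcript, the control level was 1299 for Spred1 and 420.4 for Socs4, against 5830 for Errfi1.

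Erbb3, a receptor for neuregulins that signals through its partners, fell from 281.5 to 132.1 (log2 ratio -1.09). Its control level per kb was 46.8, the lowest of the 4 DE pathway genes. Erbb3 also marks Schwann cells and neural crest. Sox10, a transcription factor of neural crest and another marker of these cells, was DE as well and fell from 326.3 to 113.2 (log2 ratio -1.53). Its control level was 120.3 per kb. The part of these cells in the lower Erbb3 expression was not tested.

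Of 10 fibroblast markers tested, 1 was DE. Fn1, which encodes the matrix protein fibronectin, fell from 3418220 to 2121647 (log2 ratio -0.69). None of the 4 epithelial, 4 macrophage, 4 endothelial and 4 skeletal muscle markers tested was DE, and Epcam and Krt5 were not among the tested genes. The levels of markers that were not DE have no value in the tables. Of the fibroblast markers Fn1 alone had a value, and 1 gene is too few to check the labelled cell type.

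**Figure D4:**
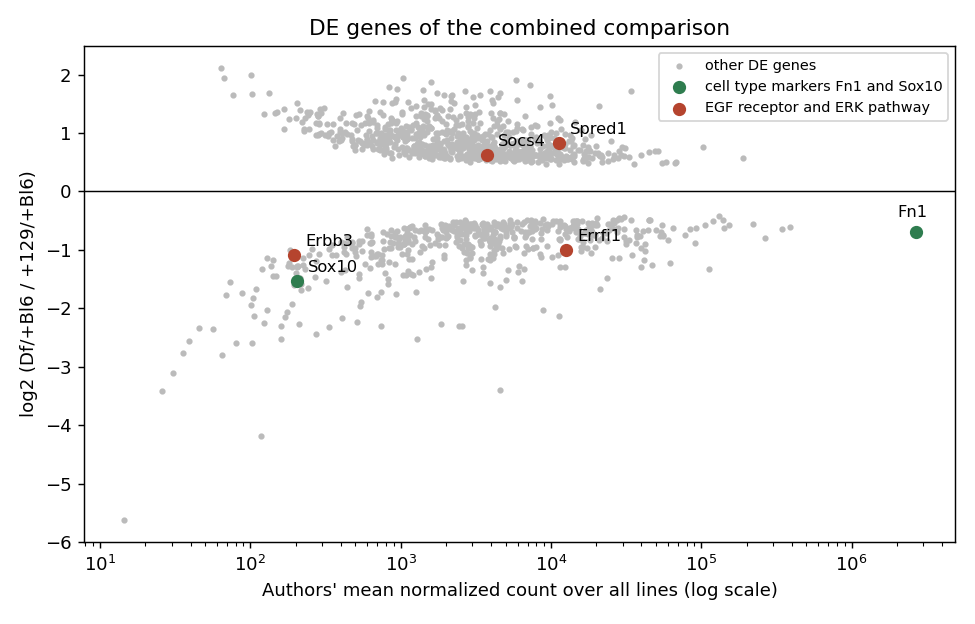
Log2 ratio of Df/+Bl6 over +129/+Bl6 against the authors' mean normalized count over all lines (log scale) for the 1346 DE genes of the combined comparison, with pathway genes in red and the cell type markers Fn1 and Sox10 in green. Errfi1 and Spred1 lie at high means on opposite sides of 0, and Erbb3, which is on both lists, lies at a low mean near Sox10.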

How the data were processed

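Stranded polyA+ libraries of 7 MEF lines were sequenced on the Illumina GA IIx. Per the methods of the study and the submitters' processing notes, reads were aligned with GSNAP to C57BL/6J (GRCm38, mm10) and 129S5/SvEvBrd transcriptomes without mismatches, counted on the longest transcript of each gene and compared with DESeq (versions not given in the sources used here). The deposited signal values are the mean normalized counts that the authors computed for each genotype, in 3 tables normalized separately. The tables also hold fold changes, log2 fold changes, p and adjusted p, which were not used. The overall mean equals the genotype means weighted by 4 and 3 for all genes of each table (relative tolerance 1e-06). The normalized counts come in 9 value columns without names, which were not used. Their gene identifiers were taken as the tested genes. Of these 15531, 14963 have a position in GENCODE vM1 (NCBI37/mm9). Its positions were not mixed with those of GRCm38.p6, used for promoters.

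Log2 ratios of the means were computed without a pseudocount, and DE means presence in a table. A limma test between lines had been planned and was not run, as the 9 value columns have no names. Matching them to lines by their values was not tried. Of 98 symbols in the pathway and marker lists, 96 matched by name and 1 by a synonym (Hras); Spry3 was not matched. The members and lists were chosen with earlier results of these data known. Named genes are the 10 members, DE genes of both lists, the neighbours of Errfi1, the interval genes with the highest and lowest ratio, and the 5 genes most like Errfi1. Some of the markers are not reported here. The ratio and the likeness ranking were tested on simulated data, and no value from that test is given here. Alternatives were pseudocounts of 1 and 10, centring, a minimum mean of 100, a minimum log2 ratio of 0.585 and the list without the members. With no replicate spread, a log2 value was taken as moved from a change of 0.1. Python 3.11.15, numpy 2.4.6, pandas 2.3.3 and matplotlib 3.10.9 were used.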

Additional observations from a re-analysis of the deposited data

How the results depend on the processing

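Of 12 alternatives over 6 results, 9 stayed within the tolerance (0.1 on the log2 scale, or 1.5 times for a count) and none changed sign. Some could hardly move, as the combined means of Errfi1 far exceed both pseudocounts, and its mean and ratio exceed both limits. The log2 ratio of Errfi1 in the combined comparison was -1.00 with pseudocounts of 1 and 10. It was -1.62 when centred on the median of the 1319 DE genes outside the interval, 0.62, which is a median of DE genes and not of all genes tested. The same shift applies to every gene and takes Spred1 from 0.83 to 0.21, Socs4 from 0.62 to 0.00 and Erbb3 from -1.09 to -1.71. The share of DE genes higher in Df/+Bl6, 59.1%, becomes 49.0% by the construction of this centring, which says nothing about the calls. For the 129S5 allele the log2 ratio of Errfi1 was -6.63, and -5.91 and -3.80 with pseudocounts of 1 and 10, as its Df/+Bl6 mean is 1.52. The count of DE members was 1 under the limits on mean and size. That of DE pathway genes was 4 under the limit on the mean and 3 without the members. Of the 5 genes most like Errfi1, 4 stayed among the nearest 5 with a pseudocount of 1 and with 10, alternatives chosen after seeing the data. With few candidates in the interval, little else could come out. The 2 alternatives for the C57BL/6J allele gave no value, since no member is in that table. The 3 alternatives of the test between lines, leaving out each line among them, were not run, because the value columns have no names. No paired analysis was possible because the values are means of each genotype. Without values per line, a line that stands apart could not be seen, and how depth bears on the calls could not be examined.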

Other observations

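In 8 families of growth factor signalling genes, chosen after their values were seen, 6 of 83 tested genes were DE in the combined comparison (7.23%, near the 8.67% of all tested genes). They include Spred1, 1 of 3 Spred genes, and Socs4, 1 of 7 Socs genes. Of 21 dual-specificity phosphatase genes tested, the family of Dusp6, 1 was DE. It was Dusp3, with means of 13011 in +129/+Bl6 and 9206 in Df/+Bl6 MEFs (log2 ratio -0.50). Among 13 genes of fibroblast growth factors, Fgf16 was DE, with means of 103.6 and 20.3 (log2 ratio -2.35), and none of 6 genes named for their receptors was. None of 7 genes of platelet-derived growth factors and their receptors was DE. Of 16 genes of the ADAM proteases, which include the enzymes that release EGF receptor ligands, Adam15 fell from 24165 to 16279 (log2 ratio -0.57). Of 10 Eph receptor genes, Ephb6 fell from 1808 to 679.5 (log2 ratio -1.41). Families were taken by symbol, as Dusp, Spred, Socs, Fgf or Adam followed directly by a digit, Epha or Ephb followed by a digit, Fgfr, and Pdgf followed by a, b, c, d or r, so that genes such as Adamts1 and Fgfbp1 were not counted.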
